A study of Mus musculus with 90 samples.

Results

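The enzymes and transporters that carry glucose to lactate, together with further target genes of the hypoxia-inducible factor (HIF), were followed as 36 genes in 2 mouse cancer cell lines given interferon γ (IFNγ) for hours or weeks. The 36 genes were taken by symbol from the 53697 gene rows of the count table, not by a cut on measured values, and all 36 were found. The list was chosen with earlier results of these data known. By role, 1 is a glucose transporter (Slc2a1), 3 are hexokinases or the isomerase after them (Hk1, Hk2, Gpi1), 5 are phosphofructokinases or their regulators (Pfkl, Pfkm, Pfkp, Pfkfb3, Pfkfb4), 9 act between aldolase and pyruvate kinase (Aldoa, Aldoc, Tpi1, Gapdh, Pgk1, Pgam1, Eno1, Eno2, Pkm) and 6 handle pyruvate and lactate (Ldha, Ldhb, Slc16a1, Slc16a3, Pdk1, Pdk3). The other 12 are HIF targets outside glycolysis (Vegfa, Car9, Bnip3, Bnip3l, Egln1, Egln3, Ndrg1, P4ha1, P4ha2, Ankrd37, Ddit4) and Mif, a cytokine with a HIF-responsive promoter.

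The study asked how the transcriptome of tumour cells differs between no, short and long exposure to IFNγ, a cytokine linked to acquired resistance to immune checkpoint blockade. YUMM2.1, a mouse melanoma line, and CT26, a mouse colon carcinoma line, each gave 15 groups of 3 samples, 90 in all, and every culture was grown in RPMI-1640 with serum. Control cells received bovine serum albumin (BSA, no IFNγ) and were taken at the start (0 weeks) and after 1, 2 and 3 weeks. Naive cells received 50 IU/mL IFNγ for 2 h or 24 h. Chronic cells spent 1, 2 or 3 weeks in 50 IU/mL IFNγ. They were harvested with no rechallenge (0 h) or after fresh IFNγ, labelled with the same dose, for 2 h or 24 h. No group received vehicle alone for 2 h or 24 h, so the effect of IFNγ at those times and that of handling the cultures cannot be told apart. The labels name the samples of a group as triplicate experiments of 1 line, and the p-values measure only the spread between these samples.

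Glycolysis splits glucose into pyruvate in the cytosol. Hexokinase traps glucose in the cell by phosphorylating it, phosphofructokinase commits the sugar to breakdown, the steps from aldolase to pyruvate kinase yield ATP, and lactate dehydrogenase turns pyruvate into lactate and so restores the NAD+ that GAPDH consumes. Tumour cells often run this route even with oxygen present, and HIF, a transcription factor that is degraded when oxygen is plentiful, raises most of its genes through short promoter motifs. The prolyl hydroxylases Egln1 and Egln3 mark HIF for that degradation and are themselves HIF targets.

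Libraries held 274719 to 3161276 counts in YUMM2.1 (median 1403265) and 295157 to 2205285 in CT26 (median 1318011). In 1 YUMM2.1 library (3 weeks of IFNγ, 0 h, replicate 3) and 2 CT26 libraries (1 week and 3 weeks of IFNγ, 0 h, replicate 3 of each) the total was under 25% of the median of the line. The IFNγ response marker Irf1 rose in naive cells at 2 h, by 4.07 on the log2 scale in YUMM2.1 cells and by 3.46 in CT26 cells, as a check of the treatment labels. Of the melanocyte markers, Sox10 (11.3 to 48.2 CPM, counts scaled to a common library total) and S100b were present in YUMM2.1, while Pmel and Mlana gave 19 and 1 counts and Tyrp1 gave 0. The other 3 were no higher than in the colon line, since over 45 libraries Mitf gave 144 counts in YUMM2.1 against 147 in CT26, Dct 56 against 127 and Tyr 15 against 21. In CT26 the epithelial markers Krt18 and Krt20 were present and Epcam, Cdh1, Krt19 and Vil1 were at 0 in every library. The summed level of 5 leukocyte markers was at most 4.76 CPM. In bulk RNA, fewer cells of a type and less RNA per cell cannot be told apart.

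Levels are given as CPM on effective library sizes of the trimmed mean of M values (TMM) method, as mean ± SD over the 3 samples of a group. Differences are log2 fold changes ± SE from the edgeR quasi-likelihood test, with p-values adjusted by Benjamini-Hochberg over all genes tested, and a gene was called at an adjusted p under 0.05. Of the 36 genes, 27 passed the filter on low counts in each line, 25 of them in both, and 7 passed in neither. Those 7 were close to absent in normoxic culture. Car9, the carbonic anhydrase used as a hypoxia marker, gave 0 counts over the 45 YUMM2.1 libraries and 5 over the 45 CT26 libraries. Egln3 gave 1 and 0 counts, the aldolase isoform Aldoc 15 and 13, and the phosphofructokinase regulator Pfkfb3 74 and 5. The neuronal enolase Eno2 gave 58 and 130 counts, Ankrd37 gave 151 and 115, and Ddit4, an inhibitor of mTOR signalling, gave 169 and 95. The level of the 36 genes as a list (the mean of their log2 CPM) differed between its lowest and highest group by 0.33 in YUMM2.1 and by 0.27 in CT26. The SD within groups had a median of 0.061 and 0.10 and a maximum of 0.29 and 0.21. The lowest CT26 group, 3 weeks of IFNγ at 0 h, holds a shallow library. With another prior count, gene subset or scaling, the range moved by at least the median SD in 3 cases and by less in 5.

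The lines differed at the pyruvate to lactate end of the pathway, although Ldha was at a higher level than Ldhb in both. In the 0-week controls, Ldhb, the lactate dehydrogenase subunit that favours the return from lactate to pyruvate, was at 137.2 ± 28.6 CPM in YUMM2.1 and at 0 counts in all 45 CT26 libraries, a difference of at least 65.9-fold on a floor of 3 counts per library, higher in YUMM2.1. Ldha, the subunit that favours lactate, went the other way: 2246, 1914 and 2440.5 CPM in YUMM2.1 against 6929, 6455 and 6334 CPM in CT26. The groups do not overlap, and the level in CT26 was 2.99-fold higher (log2 -1.58 ± 0.12, adjusted p = 6.83e-19). Both lactate carriers were also lower in YUMM2.1. Slc16a1, the carrier MCT1, was at 9.68 ± 1.51 CPM in YUMM2.1, against 32.8 ± 7.86 in CT26 (log2 -1.79 ± 0.37). Slc16a3, the exporter MCT4 that HIF induces, gave 3 counts over all YUMM2.1 libraries and was at 10.6 ± 5.54 CPM in the CT26 controls, at least 4.64-fold higher in CT26.

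At the entry to the pathway the lines differed in Hk1, while Hk2 was not called. Hk1, the housekeeping hexokinase, was at 29.5 ± 4.78 CPM in YUMM2.1, against 5.97 ± 1.18 in CT26 (log2 2.30 ± 0.33, adjusted p = 1.04e-08), with no overlap. Hk2, the inducible hexokinase, was at 32.4 ± 12.4 and 30.6 ± 2.82 CPM, and the glucose transporter Slc2a1 (GLUT1) at 18.6 ± 1.84 and 19.2 ± 4.67 CPM. Neither of these was called, with an interval of 2 SE for Slc2a1 from -0.67 to 0.60 on the log2 scale. Pfkfb4, a regulator that raises the activator of phosphofructokinase, was at 8.06 ± 1.57 CPM in YUMM2.1, against 1.60 ± 0.30 in CT26, at least 3.87-fold higher. The platelet phosphofructokinase Pfkp was called higher in YUMM2.1 (log2 0.92 ± 0.32, adjusted p = 0.0136) although its groups overlap.

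Of the middle enzymes, 4 were lower and 1 was higher in YUMM2.1. Eno1 was at 1764, 1614 and 1902 CPM in YUMM2.1, against 3999, 3928 and 3799 CPM in CT26 (log2 -1.15 ± 0.10, adjusted p = 5.76e-17). Pgk1, the first ATP-forming step, was at 686 ± 98.7 against 1509 ± 34.1 CPM, and Pgam1 at 128 ± 14.96 against 276 ± 25.6 CPM. These 3 enzymes differed by 2.16-fold to 2.22-fold, and the neighbouring Tpi1 (667 ± 118 and 682 ± 13.6 CPM) and Pkm (1279 ± 186 and 1454 ± 51.7 CPM) were not called. Gapdh was slightly lower in YUMM2.1 (log2 -0.40 ± 0.14, adjusted p = 0.0135) and Aldoa slightly higher (log2 0.35 ± 0.13, adjusted p = 0.0196). With scaling to library totals the median over all genes tested was 0.24 in place of 0.080, and Gapdh was then not called (log2 -0.23, adjusted p = 0.135).

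HIF targets outside glycolysis did not move as a block between the lines. Bnip3l, a mitophagy receptor, was higher in YUMM2.1 (121 ± 10.1 against 74.0 ± 15.8 CPM), as was the collagen prolyl hydroxylase subunit P4ha2 (33.8 ± 3.17 against 21.3 ± 2.16 CPM, adjusted p = 0.0498, not called by DESeq2 at adjusted p = 0.0811). The related mitophagy receptor Bnip3 was lower (70.9 ± 5.88 against 108 ± 21.8 CPM), and so was the stress gene Ndrg1 (8.58 ± 2.13 against 24.9 ± 7.44 CPM). Pdk3, a kinase that shuts pyruvate dehydrogenase, was called lower in YUMM2.1 with overlapping groups (adjusted p = 0.0484). In all, 17 of the 29 genes tested across both lines were called, 7 higher and 10 lower in YUMM2.1, beside 46.0% of the 10339 genes tested (25.9% higher, 20.1% lower). The median log2 difference of the 29 was -0.069, beside 0.080 over all genes.

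**Figure D1:**
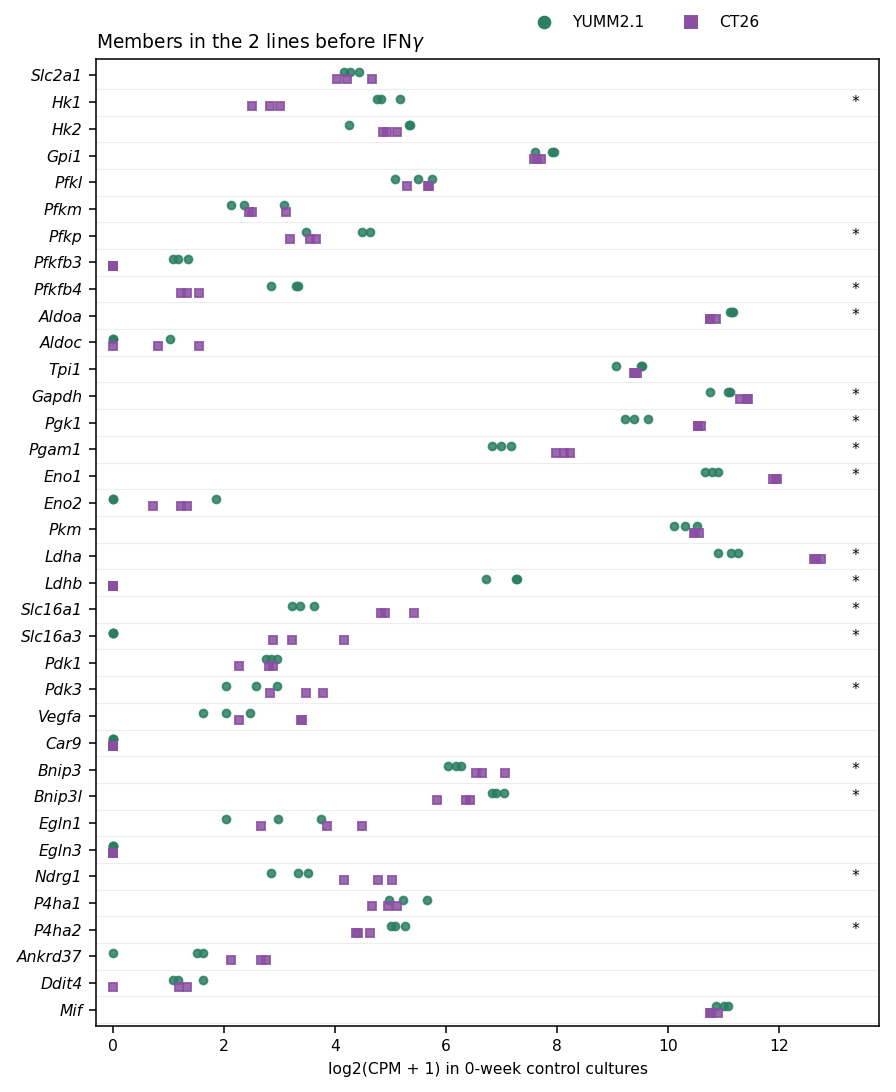
Levels of the 36 genes in the 3 YUMM2.1 and the 3 CT26 controls at 0 weeks, on a log2(CPM + 1) axis, ordered by role, with 1 point per sample and an asterisk where the adjusted p between lines is under 0.05. Ldhb and Hk1 sit higher in YUMM2.1, Ldha, Eno1, Pgk1, Pgam1 and Slc16a1 sit higher in CT26, and Slc2a1, Hk2 and Tpi1 coincide.

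Most of the genes hold, near their start, the short core of the hypoxia response element. The list was made of glycolysis genes and known HIF targets, many of which are known to respond through this element, so the shares below describe the genes and are not independent of how they were listed. Promoter windows of 300 bases (250 before and 50 after each RefSeq start, build GRCm38.p6) were found for 34 of the 36 genes, with several starts for some, 48 windows in all. On either strand the letters ACGTG were in a window of 25 of the 34 genes (73.5%), beside 21.8% of all 27025 genes in the table, and GCGTG was in 23 (67.6%) beside 35.2%. A window with either core was found for 31 genes (91.2%, beside 46.7%), and the 3 without were Gpi1, Tpi1 and Eno2. The E-box CACGTG, which holds ACGTG on both strands, was in 5 genes (14.7%, beside 8.09%). The letters TTCNNNGAA, a STAT-type motif added to the search after the values were seen, were in 2 genes (5.88%, beside 9.55%), Pfkm and Aldoc. The windows of these genes were richer in G and C (median 62.2%) than those of all genes (52.7%). A match of letters is a description and not a binding site.

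Hk2 was higher in every YUMM2.1 sample taken 2 h after IFNγ than in the samples of the same week taken before it, and the rise was called after 2 and after 3 weeks. In naive YUMM2.1 cells it was at 39.7, 18.1 and 39.4 CPM in the 0-week controls and at 84.1, 47.6 and 48.2 CPM after 2 h, with no overlap (log2 0.85 ± 0.25, unadjusted p = 0.00133, not called). After 1 week of IFNγ it was at 48.2, 42.7 and 33.4 CPM at 0 h and at 70.2, 85.5 and 74.5 CPM 2 h after rechallenge (log2 0.87 ± 0.24, unadjusted p = 0.000898, not called by edgeR and called by DESeq2). In both of these comparisons the 2 h samples all lay above the samples they were compared with.

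In YUMM2.1 cells kept in IFNγ for 2 weeks, Hk2 was at 34.0, 20.2 and 36.1 CPM at 0 h and at 85.6, 64.2 and 47.0 CPM at 2 h, a 2.18-fold rise (log2 1.13 ± 0.25, adjusted p = 0.0146). After 3 weeks it went from 41.6, 38.0 and 11.8 CPM to 70.9, 63.2 and 76.5 CPM, a 2.01-fold rise (log2 1.01 ± 0.26, adjusted p = 0.0401). The value of 11.8 CPM came from the shallow library, and without the shallow libraries the difference was 0.84 with an adjusted p of 0.141. Averaged over the 4 comparisons at 2 h, an estimate added after the values were seen, Hk2 rose 1.95-fold in YUMM2.1 (log2 0.96 ± 0.13, adjusted p = 3.67e-07, positive in 4 of 4), and it was called in every alternative fit that was run. By 24 h the same average was 0.41 ± 0.13 (adjusted p = 0.138), positive in 4 of 4 and not called.

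In CT26 the rise of Hk2 was smaller and rested on the average. The naive samples overlap: 28.3, 33.7 and 29.6 CPM in the controls against 27.2, 40.9 and 33.3 CPM at 2 h (log2 0.13). After 1 week Hk2 was at 28.4, 30.2 and 16.3 CPM at 0 h and 45.5, 38.3 and 39.1 CPM at 2 h (log2 0.61). After 2 weeks it was at 30.5, 16.4 and 25.6 CPM and then at 37.8, 44.4 and 38.1 CPM (log2 0.70). In these chronic cells the 2 h samples all lay above those at 0 h, and no single comparison was called. After 3 weeks the values were 16.9, 26.3 and 10.5 CPM at 0 h and 40.4, 28.2 and 21.9 CPM at 2 h, which overlap (log2 0.66). The average over the 4 was 1.44-fold (log2 0.53 ± 0.13, adjusted p = 0.0345, positive in 4 of 4), and without the shallow libraries it was 0.48 with an adjusted p of 0.0778. The difference between the lines in this average was 0.42 ± 0.20 (unadjusted p = 0.0364, adjusted p = 0.903), so a larger rise in YUMM2.1 was not shown.

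**Figure D2:**
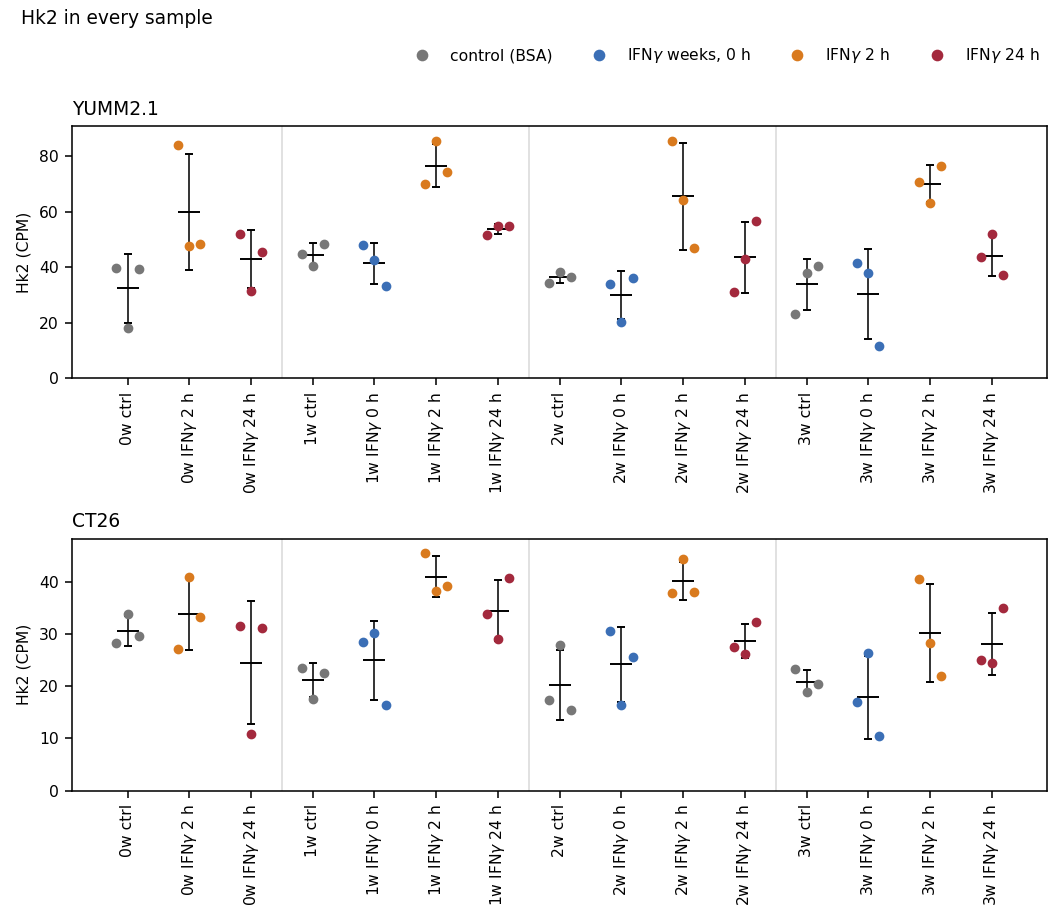
Hk2 in CPM in each of the 45 samples of YUMM2.1 and of CT26, by group, with 1 point per sample and bars at the mean ± SD (n = 3). In YUMM2.1 the 2 h groups stand above the 0 h group of the same week, up to a mean of 76.7 CPM at 1 week, while in CT26 the same groups reach 41.0 CPM at most.

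Beside Hk2, the genes tested at 2 h gave few calls. In YUMM2.1, 0 of 27 were called in naive cells (edgeR; 1 at an unadjusted p under 0.05, 0 by DESeq2), where 0.240% of the 9589 genes tested were called. After 1 week 0 were called (6 at an unadjusted p under 0.05, 3 by DESeq2, which were Hk2, Eno1 and Mif) beside 0.615% of all genes. After 2 weeks Hk2 alone was called beside 0.428%, and after 3 weeks Hk2 alone beside 1.08%. The medians of the 27 log2 differences were 0.023, -0.11, -0.078 and -0.13 in these 4 comparisons, and over the 14 YUMM2.1 comparisons the median of all genes tested lay between -5e-04 and 0.032. In the average over 2 h, Eno1 was called beside Hk2, lower by 11.2% (log2 -0.17 ± 0.05, adjusted p = 0.0311, negative in 4 of 4), so 2 of 27 were called where 2.19% of all genes were.

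CT26 at 2 h gave 0 calls in each single comparison. In naive cells 1 of 27 had an unadjusted p under 0.05 and 0 were called by DESeq2, beside 0.235% of the 8516 genes tested called by edgeR. After 1 week 9 had an unadjusted p under 0.05, 3 higher and 6 lower, and DESeq2 called 1 (Eno1), beside 0.376% of all genes called. After 2 weeks the numbers were 4 and 0 beside 0.305%, and after 3 weeks 4 and 0 beside 0.0117%. The average over 2 h called Hk2 alone, 1 of 27, beside 0.928% of all genes.

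The Hk2 promoter is shown because Hk2 was the gene called at 2 h. It holds 2 core motifs, in capitals, which read ACGTG or GCGTG on 1 of the strands, at chr6:82774405-82774704 on the minus strand (RefSeq, GRCm38.p6), printed 5′ to 3′ in the direction of transcription:
Hk2: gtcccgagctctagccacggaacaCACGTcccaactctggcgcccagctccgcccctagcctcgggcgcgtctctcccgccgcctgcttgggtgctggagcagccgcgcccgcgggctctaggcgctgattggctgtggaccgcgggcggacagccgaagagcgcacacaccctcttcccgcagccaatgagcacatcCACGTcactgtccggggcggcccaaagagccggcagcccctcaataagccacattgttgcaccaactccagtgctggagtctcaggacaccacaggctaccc
Slc16a1, whose values follow, has 5 cores in its window at chr3:104638414-104638713 on the plus strand. Its first site is an E-box, which counts as 2 cores, 1 per strand:
Slc16a1: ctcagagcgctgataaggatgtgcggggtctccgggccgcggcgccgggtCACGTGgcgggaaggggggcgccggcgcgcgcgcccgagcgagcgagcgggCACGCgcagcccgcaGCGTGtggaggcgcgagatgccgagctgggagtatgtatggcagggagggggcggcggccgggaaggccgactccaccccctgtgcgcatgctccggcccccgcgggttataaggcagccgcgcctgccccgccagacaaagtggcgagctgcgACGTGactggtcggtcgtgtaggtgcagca

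Weeks in IFNγ went with lower levels of several enzymes between Tpi1 and Ldha in both lines. In YUMM2.1 the average of the 3 weekly comparisons against same-week BSA controls, added after the values were seen, called 3 genes, all lower. Tpi1, which interconverts the triose phosphates, was 20.6% lower (log2 -0.33 ± 0.08, adjusted p = 0.00775), Gapdh 18.9% lower (log2 -0.30 ± 0.06, adjusted p = 0.00231) and Ldha 15.9% lower (log2 -0.25 ± 0.07, adjusted p = 0.024), each negative in 3 of 3 weeks. Without the shallow library Ldha was at -0.21 with an adjusted p of 0.0888. In CT26 the same average called 7 genes, 5 lower and 2 higher. Ldha fell by 0.24 ± 0.06 on the log2 scale (adjusted p = 0.0039), Eno1 by 0.21 ± 0.05 (adjusted p = 0.00457), Tpi1 by 0.26 ± 0.07 (adjusted p = 0.0102), Pkm by 0.19 ± 0.05 (adjusted p = 0.0135) and Gapdh by 0.28 ± 0.09 (adjusted p = 0.0333), each negative in 3 of 3 weeks. The 3 genes called in YUMM2.1 were thus among the 7 called in CT26, and the difference between lines in this average was called for 0 of 29 genes (edgeR; 1 at an unadjusted p under 0.05, 0 by DESeq2) beside 0.184% of all genes. Ldhb and Slc16a3, at or near 0 in 1 line, gave no usable estimate of that difference. Over the 27 genes the median was -0.094 in YUMM2.1 and -0.13 in CT26, beside 0.0070 and 0.0083 over all genes, and 2.95% and 8.14% of all genes were called.

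Gapdh in YUMM2.1 was at 2401, 2669 and 2702 CPM in the 3-week controls and at 1965, 1893 and 1590.3 CPM after 3 weeks of IFNγ. The groups do not overlap, and the fall by 0.43 ± 0.11 on the log2 scale was called (adjusted p = 0.0423), although not without the shallow library (-0.37, adjusted p = 0.269) or on library totals (-0.33, adjusted p = 0.172). This is a reference gene in many assays, and here its group means in YUMM2.1 ranged from 1539 to 2753 CPM. At 1 week it was at 2669.9, 2615 and 2974 CPM in the controls and at 2119, 2141 and 2346 CPM with IFNγ, and at 2 weeks at 2048, 1869 and 1919.8 CPM against 1719, 1598 and 1839 CPM. In each of the 3 weeks every IFNγ sample lay below every control of that week.

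Tpi1 in YUMM2.1 followed the same order at 1 week (783, 759 and 858 CPM in controls, 681, 669.8 and 526 CPM with IFNγ) and at 3 weeks (774, 793 and 854 CPM against 644, 610.0 and 443 CPM). At 2 weeks its groups overlap, with 727, 586 and 639.7 CPM in controls and 548, 472 and 617 CPM with IFNγ. Ldha at 3 weeks was at 2171, 2138 and 2172 CPM in controls and at 1779, 1622 and 1292 CPM with IFNγ. It was lower in each IFNγ sample than in each control at 1 week and at 3 weeks and overlapped at 2 weeks. Of the 27 genes, 0 were called at 1 week (edgeR; 3 at an unadjusted p under 0.05, 0 by DESeq2) beside 0.730% of all genes, 0 at 2 weeks (2, and 0 by DESeq2) beside 1.12%, and Gapdh alone at 3 weeks beside 0.970%. The medians were -0.081, -0.10 and -0.13.

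In CT26 the single week that passed was the third. Ldha was at 6714, 6641 and 6502 CPM in the 3-week controls and at 5409, 4602 and 4832 CPM with IFNγ (log2 -0.42 ± 0.10, adjusted p = 0.00444). Eno1 was at 4001, 4011 and 4121 CPM against 3327, 2936 and 3094 CPM (log2 -0.37 ± 0.09, adjusted p = 0.00447), and Pkm at 1794, 1817 and 1796 CPM against 1522, 1298 and 1388 CPM (log2 -0.36 ± 0.09, adjusted p = 0.00795). For these 3 genes every IFNγ sample lay below every control. So 3 of 27 genes were called, all lower, beside 7.23% of all genes in either direction and 3.79% lower. At 1 week 0 were called (edgeR; 7 at an unadjusted p under 0.05, 6 of them lower, 0 by DESeq2) beside 0.728% of all genes, and at 2 weeks 0 (1 at an unadjusted p under 0.05, 0 by DESeq2) beside 1.67%. The medians were -0.20, -0.049 and -0.17, while over the 14 CT26 comparisons the median of all genes lay between -0.022 and 0.020.

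Depth moved with some of these comparisons, and its part in them was not tested. At 3 weeks the YUMM2.1 controls held 2354083 to 3047691 counts and the IFNγ libraries 274719 to 1617485, and the CT26 controls 1318011 to 2183005 against 295157 to 1080409. At 2 weeks the YUMM2.1 controls held 994733 to 1270700 counts and the IFNγ libraries 1093299 to 2140588. There Gapdh was lower in every IFNγ sample, while the groups of Tpi1 and of Ldha overlap. Over the 45 libraries of a line the list level and the log2 library total had a correlation of 0.69 in YUMM2.1 and 0.65 in CT26. The mitochondrial share of counts moved too. At 3 weeks it was 6.09% to 6.46% with IFNγ and 5.62% to 5.83% in controls in YUMM2.1, and 7.08% to 7.43% against 5.79% to 6.51% in CT26, with no overlap in either line. At 2 weeks the shares overlap in both lines, and at 1 week they stand apart in YUMM2.1 and overlap in CT26. The lineage marker S100b also fell at 3 weeks in YUMM2.1 (51.5 ± 14.6 against 102.7 ± 2.54 CPM, adjusted p = 0.0213). The part of either in the enzyme values was not tested. Scaling to library totals put the median of all genes in the CT26 weekly average at 0.13 and at 3 weeks at 0.22. With that scaling the CT26 averages stayed negative but were not called for Tpi1 (-0.15), Gapdh (-0.16), Eno1 (-0.10) and Pkm (-0.08), and Pkm at 3 weeks was at -0.17 (adjusted p = 0.0879).

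**Figure D3:**
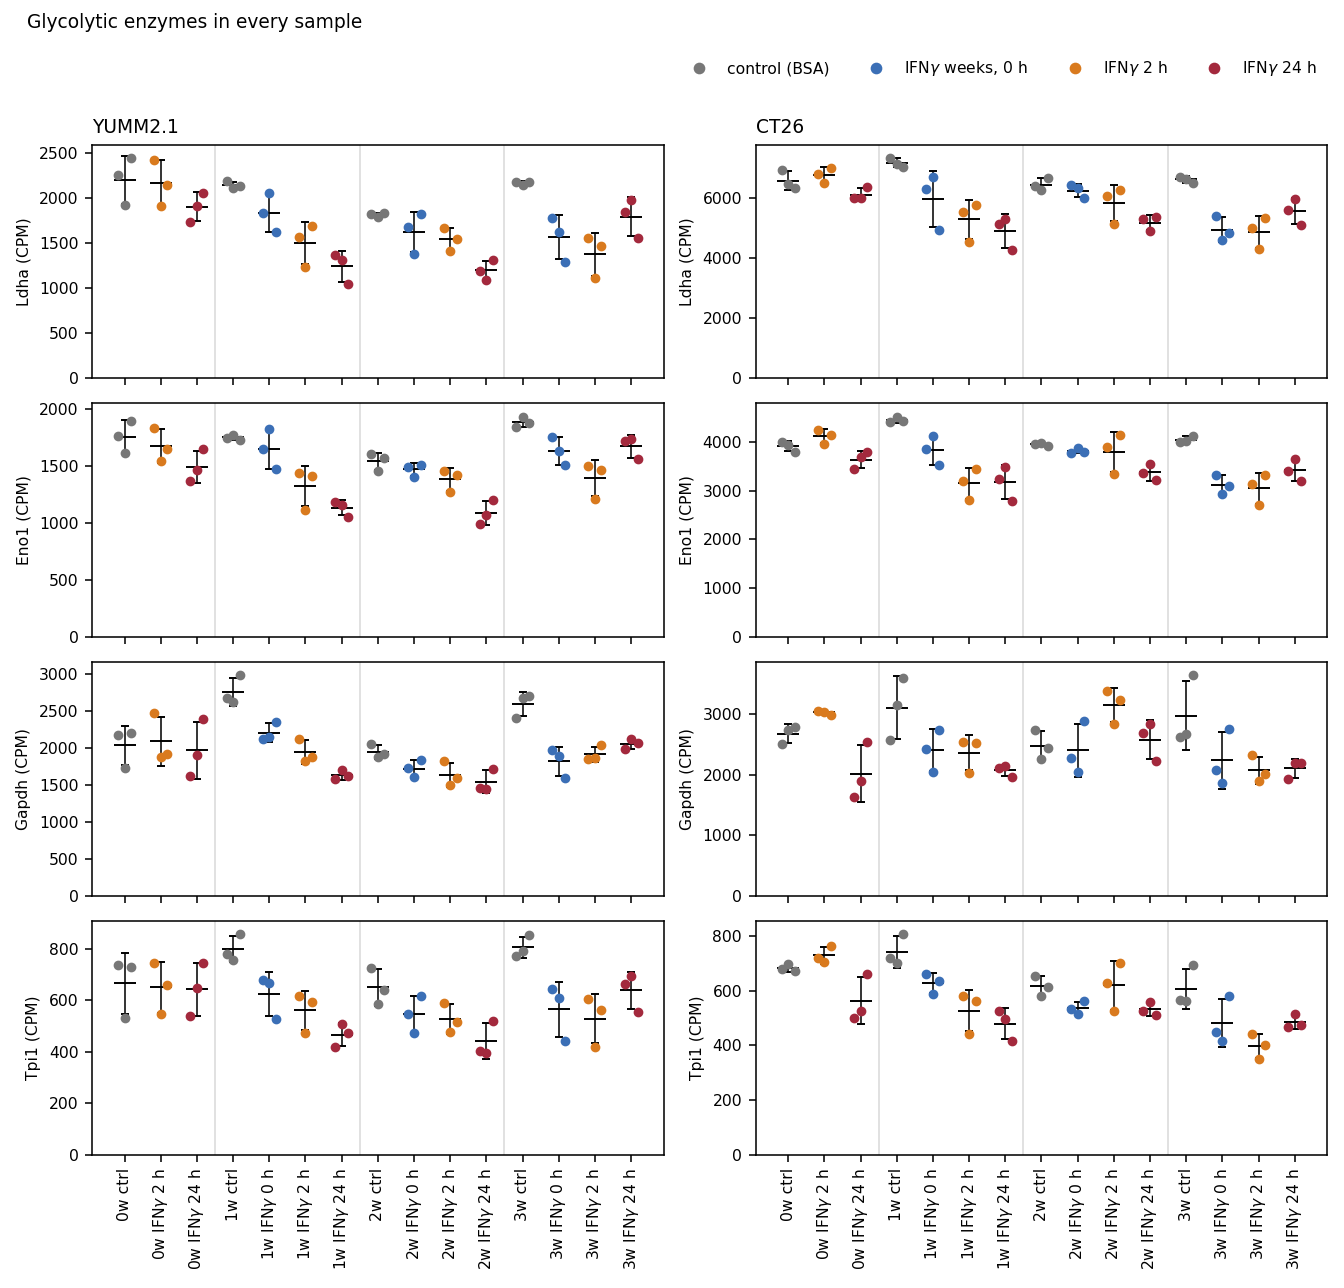
Ldha, Eno1, Gapdh and Tpi1 in CPM in every sample of both lines, by group, with bars at the mean ± SD (n = 3). In YUMM2.1 the lowest group mean of each of the 4 is at 24 h of rechallenge after 2 weeks, and Ldha and Eno1 lie higher in every CT26 group than in the YUMM2.1 group of the same treatment.

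The promoters of 4 enzymes called lower in some comparison or average of each line differ in their hypoxia cores, and are shown for that reason with cores in capitals, 5′ to 3′ (RefSeq, GRCm38.p6). Tpi1, Gapdh and Ldha were called in the weekly average of both lines, and Eno1 over weeks in CT26 and at 2 h and 24 h in YUMM2.1. Cores were counted on each strand, so an E-box CACGTG counts as 2. Ldha (chr7:46845554-46845853, plus strand, the first of 2 windows) holds 7 cores, with 2 E-boxes among its sites, and its second window holds 2. Gapdh (chr6:125165724-125166023, minus strand) holds 3. Eno1 (chr4:150236458-150236757, plus strand, the first of 3 windows) holds 2 and Tpi1 (chr6:124814109-124814408, minus strand) holds 0, and a relation of cores to the falls was not tested:
Ldha: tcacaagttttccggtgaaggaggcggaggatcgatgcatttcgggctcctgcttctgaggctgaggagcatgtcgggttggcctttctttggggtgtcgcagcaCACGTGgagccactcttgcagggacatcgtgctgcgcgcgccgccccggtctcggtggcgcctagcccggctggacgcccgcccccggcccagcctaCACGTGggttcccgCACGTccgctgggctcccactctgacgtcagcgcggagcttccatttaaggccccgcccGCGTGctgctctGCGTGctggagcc
Gapdh: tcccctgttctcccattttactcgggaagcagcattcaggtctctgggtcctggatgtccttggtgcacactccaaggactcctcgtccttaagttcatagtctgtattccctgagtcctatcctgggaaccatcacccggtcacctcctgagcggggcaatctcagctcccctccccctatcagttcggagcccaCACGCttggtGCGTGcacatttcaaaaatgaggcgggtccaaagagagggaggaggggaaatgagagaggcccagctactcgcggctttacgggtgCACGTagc
Eno1: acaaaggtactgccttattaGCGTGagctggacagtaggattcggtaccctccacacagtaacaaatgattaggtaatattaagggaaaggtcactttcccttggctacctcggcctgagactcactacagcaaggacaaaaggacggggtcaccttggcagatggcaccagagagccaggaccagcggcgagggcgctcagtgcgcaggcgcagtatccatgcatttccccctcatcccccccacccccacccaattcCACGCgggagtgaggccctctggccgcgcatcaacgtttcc
Tpi1: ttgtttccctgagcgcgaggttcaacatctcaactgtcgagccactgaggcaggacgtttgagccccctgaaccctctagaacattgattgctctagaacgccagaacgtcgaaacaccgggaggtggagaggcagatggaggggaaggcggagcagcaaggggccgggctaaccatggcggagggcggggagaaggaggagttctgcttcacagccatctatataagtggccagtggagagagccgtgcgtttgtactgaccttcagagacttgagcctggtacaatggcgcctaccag

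Slc16a1 (MCT1) went against the enzymes. In CT26 the weekly average rose by 0.70 ± 0.22 on the log2 scale (adjusted p = 0.0422, positive in 3 of 3). At 3 weeks it was at 19.8, 22.7 and 20.4 CPM in controls and at 32.9, 74.0 and 10.5 CPM with IFNγ, where both the highest and the lowest value of the comparison are IFNγ samples. At 2 weeks it was at 28.5, 19.4 and 16.4 CPM against 23.8, 30.8 and 28.7 CPM, and the groups overlap there too. In YUMM2.1 the average was 0.59 ± 0.21 (adjusted p = 0.139), positive in 3 of 3 and not called.

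Vegfa, the angiogenic growth factor and a HIF target, was 3.17-fold higher in the CT26 weekly average (log2 1.67 ± 0.39, adjusted p = 0.00372, positive in 3 of 3) at very low counts. It gave 305 counts over the 45 CT26 libraries, and at 2 weeks it was at 3.17, 1.21 and 1.03 CPM in controls and at 9.52, 4.11 and 10.6 CPM with IFNγ. At 3 weeks 1 IFNγ sample was at 0 and the groups overlap. The controls at 2 weeks all lay below those at 0 weeks, which were at 3.83, 9.44 and 9.65 CPM, so the IFNγ samples were near the start. In YUMM2.1 Vegfa gave 137 counts in all and did not pass the filter.

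At 24 h after IFNγ the clearest change was in YUMM2.1 cells rechallenged after 1 week. Ldha was at 1829, 2056 and 1616 CPM at 0 h and at 1363, 1311 and 1044.5 CPM at 24 h (log2 -0.56 ± 0.12, adjusted p = 0.00265). Eno1 was at 1655, 1825 and 1473 CPM and then at 1190.5, 1164 and 1059 CPM (log2 -0.53 ± 0.09, adjusted p = 2e-04). Gpi1, the isomerase after hexokinase, went from 251, 245 and 228 CPM to 173, 158 and 178 CPM (log2 -0.50 ± 0.12, adjusted p = 0.0102). In all of these the 24 h samples lay below the 0 h samples, as they did for Gapdh (1632 ± 62.9 against 2202 ± 126 CPM, log2 -0.42, adjusted p = 0.036). So 4 of 27 genes fell, beside 0.302% of all genes called lower and 1.42% called in either direction. The median of the 27 was -0.25, with 23 negative, beside 0.0035 over all genes, and at an unadjusted p under 0.05 there were 11, all lower.

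After 2 weeks Eno1 fell again at 24 h, from 1496, 1409 and 1511 CPM to 991, 1074 and 1207 CPM (log2 -0.39 ± 0.09, adjusted p = 0.0269), the single call among 27 genes beside 0.615% of all. Tpi1, Gapdh, Eno1, Pkm and Ldha all had the lowest mean of the 15 YUMM2.1 groups there. In naive YUMM2.1 cells at 24 h 0 were called (edgeR; 3 at an unadjusted p under 0.05, 0 by DESeq2) beside 0.886% of all genes. After 3 weeks 0 were called (1, and 0 by DESeq2), and 0% of all genes were. The medians were -0.24 at 2 weeks, 0.0056 in naive cells and 0.098 at 3 weeks. The sign of the list median after 3 weeks was opposite to that after 1 and 2 weeks, with 20 of 27 genes positive. The 0 h group at 3 weeks holds the shallow library. Its list level was 4.72, beside 5.18 and 5.26 in the other 0 h samples and 5.17, 5.20 and 5.25 at 24 h. A change of direction was therefore not shown.

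The average over the 4 YUMM2.1 comparisons at 24 h called 4 genes of 27, all lower, beside 1.52% of all genes. Eno1 was at -0.28 ± 0.05 (adjusted p = 4.46e-05, negative in 4 of 4) and Ldha at -0.25 ± 0.06 (adjusted p = 0.0107, negative in 3 of 4). Pfkl, the liver-type phosphofructokinase, was at -0.43 ± 0.11 (adjusted p = 0.0211, negative in 3 of 4), with 37.0, 40.6 and 27.8 CPM at 0 h and 20.6, 25.3 and 23.0 CPM at 24 h after 1 week. P4ha2 was at -0.55 ± 0.15 (adjusted p = 0.0477, negative in 4 of 4). The averages at 2 h, at 24 h and over weeks use some of the same samples, since the 0 h chronic samples stand on one side of each.

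CT26 gave 0 calls at 24 h. In naive cells 4 of 27 had an unadjusted p under 0.05 and DESeq2 called 0, beside 2.04% of all genes called by edgeR. After 1 week 12 had an unadjusted p under 0.05, 10 of them lower, and DESeq2 called 4 (Tpi1, Eno1, Pkm and Ldha), beside 1.32% of all genes. There Ldha was at 6295, 6698 and 4928 CPM at 0 h and 5120.1, 5315 and 4263 CPM at 24 h, and the groups overlap through the shallow library. After 2 weeks the numbers were 6 and 0 beside 0.658%, and after 3 weeks 0 and 0 beside 0%. The 24 h average called 0 genes (edgeR; 7 at an unadjusted p under 0.05, 0 by DESeq2) beside 2.20% of all genes, with Eno1 at -0.10 ± 0.04 (adjusted p = 0.394) and Ldha at -0.12 ± 0.05 (adjusted p = 0.333). For Eno1 the lines differed by -0.19 ± 0.07 in that average (unadjusted p = 0.00815, adjusted p = 0.801), so the lines were not shown to differ at 24 h.

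**Figure D4:**
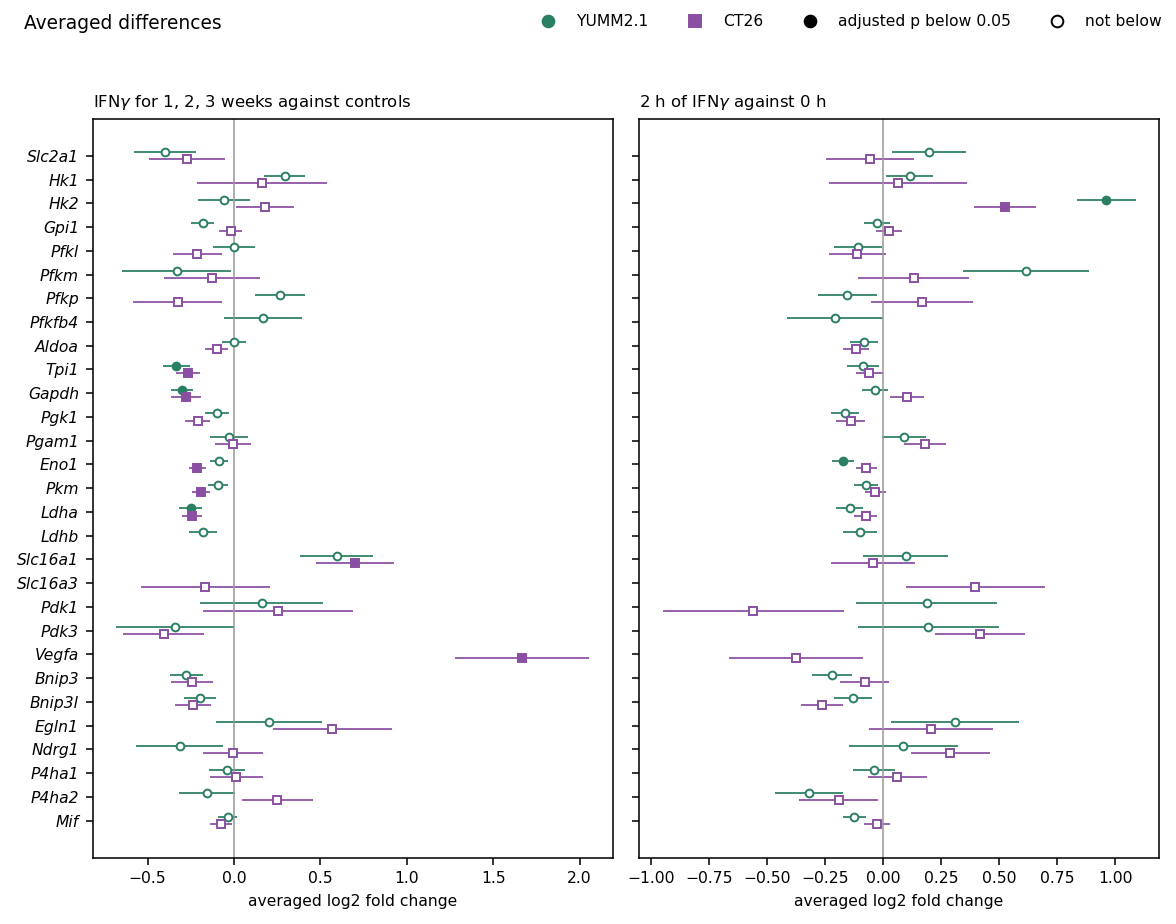
Averaged log2 fold changes ± SE of the genes tested in each line, for the 3 weekly comparisons and for the 4 comparisons at 2 h, with filled points where the adjusted p is under 0.05. Hk2 is the point far to the right at 2 h in YUMM2.1 (0.96), and Tpi1, Gapdh and Ldha are filled on the negative side of the weekly panel in both lines.

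Tests of a difference between the lines in their change with IFNγ called 0 of 29 genes in every such contrast that was fitted. Ldhb is among the 29 but was at 0 in CT26 and gave no usable estimate there. Slc16a3 gave 3 counts over all YUMM2.1 libraries and no usable estimate either. Its naive 24 h contrast was 2.41 ± 1.64 on the log2 scale. For these genes a difference between lines could not be tested. At 24 h in naive cells 1 had an unadjusted p under 0.05 beside 0.0870% of all genes called, and at 3 weeks of IFNγ 3 did, beside 0.106%. For the averages it was 1 at 2 h beside 0.155% and 4 at 24 h beside 0.0387%, and DESeq2 called 0 in each of them. A difference past the threshold in 1 line and not in the other, such as Eno1 at 24 h, was therefore not shown to be particular to that line.

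Culture without IFNγ moved few of the genes. In YUMM2.1 controls 0 of 27 were called at 1 week (edgeR; 2 at an unadjusted p under 0.05, both higher, and DESeq2 called Gapdh) beside 0.0730% of all genes. At 2 weeks 0 were called (3, and 0 by DESeq2) beside 0.0209%, and at 3 weeks 0 (3, and 0 by DESeq2) beside 0.521%. In CT26 controls 0 were called at 1 week (4, and 0 by DESeq2) beside 0.0117%, and 0 at 2 weeks (4, and 0 by DESeq2) beside 0.247%. At 3 weeks 2 were called beside 0.916%. Bnip3 went from 133, 92.4 and 99.7 CPM at the start to 47.3, 67.5 and 62.4 CPM (log2 -0.84 ± 0.19, adjusted p = 0.0178). Pkm went from 1512, 1414 and 1436 CPM to 1794, 1817 and 1796 CPM (log2 0.34 ± 0.09, adjusted p = 0.0499). Since Pkm in the controls had risen by the week at which IFNγ samples were lower, its IFNγ samples at 3 weeks (1403 ± 112 CPM) lay near the start (1454 ± 51.7 CPM), while for Ldha and Eno1 they lay below every 0-week control.

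The remaining genes were called by edgeR in no IFNγ comparison of either line. The glucose transporter Slc2a1 ranged from 11.6 to 23.6 CPM over YUMM2.1 groups and from 8.46 to 24.1 CPM over CT26 groups, with weekly averages of -0.40 ± 0.18 and -0.27 ± 0.22. Ldhb in YUMM2.1 ranged from 93.2 to 167 CPM, with its lowest group, 24 h after 2 weeks, shared with Ldha. Pgk1 had a weekly average of -0.21 ± 0.07 in CT26 that just missed the threshold (adjusted p = 0.0521). Hk1 was at 0.29 ± 0.12 in the YUMM2.1 weekly average (adjusted p = 0.224), opposite in sign to the later enzymes. Mif was among the steadiest genes, with a ratio of 1.42 in YUMM2.1 and 1.29 in CT26 between its highest and lowest group. Of the HIF targets, Bnip3 was at -0.28 ± 0.10 and Bnip3l at -0.20 ± 0.09 in the YUMM2.1 weekly average, neither called. The hydroxylase Egln1 ranged from 4.13 to 15.8 CPM over YUMM2.1 groups and from 6.21 to 19.7 over CT26 groups. Its highest group in each line was at 2 h after 3 weeks. In CT26 that mean rests on 1 sample, with 6.88, 39.9 and 12.3 CPM against 16.0, 15.5 and 17.5 CPM at 0 h.

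**Figure D5:**
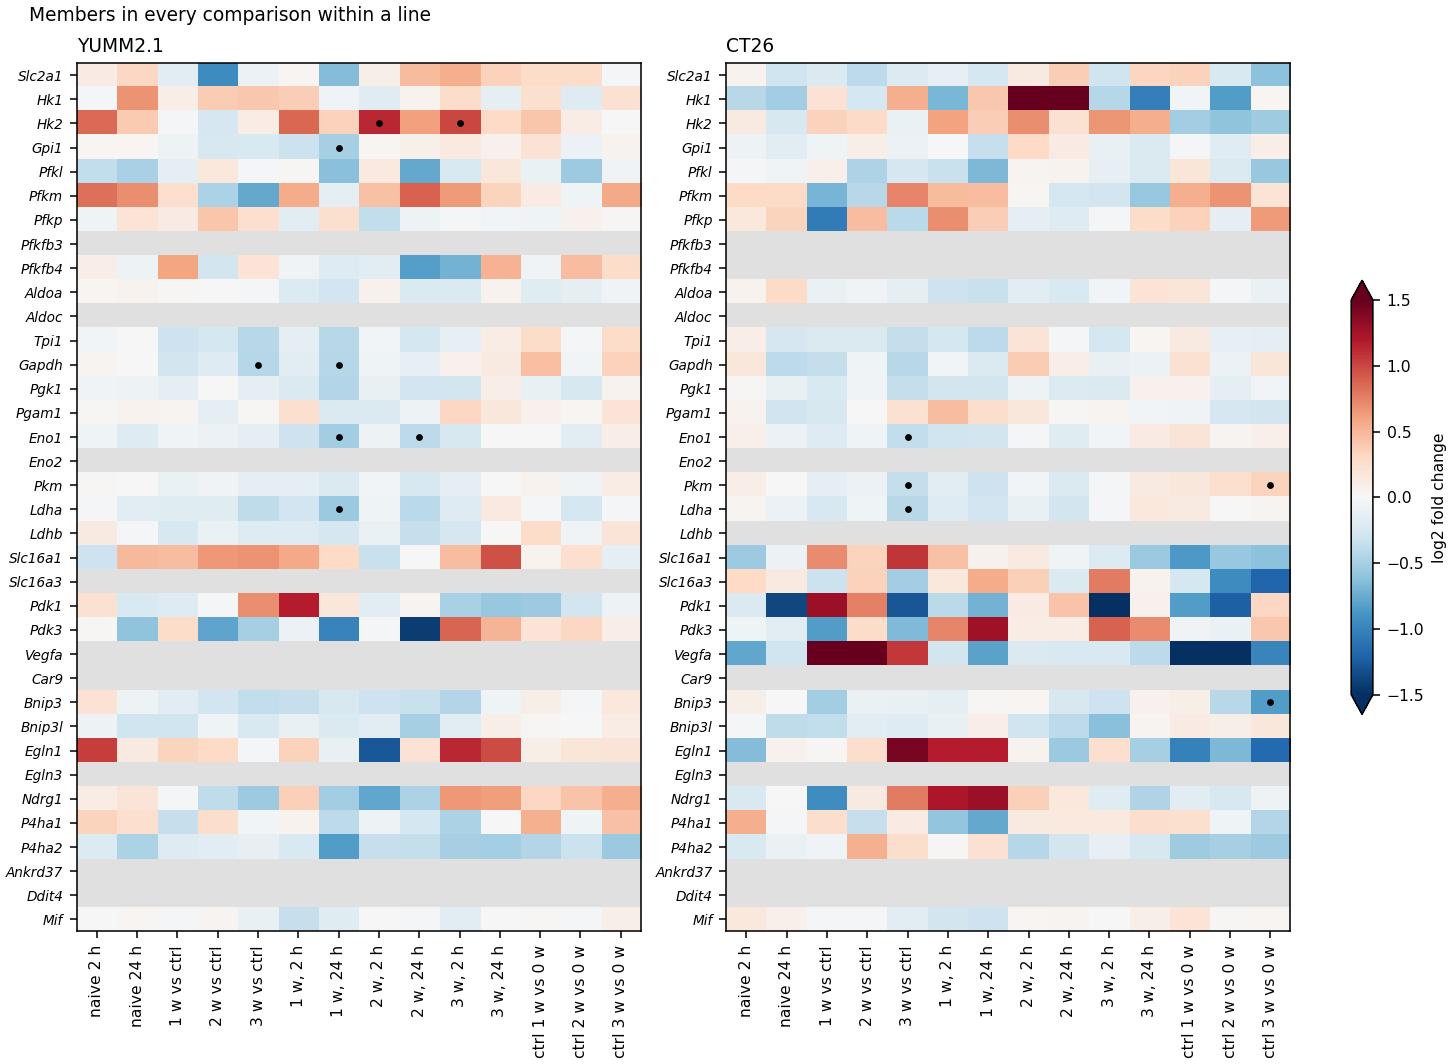
Heat map of the log2 fold changes of the 36 genes in the 14 comparisons of each line, with a dot where the adjusted p is under 0.05 and grey where a gene was not tested. The colour scale ends at 1.5 in each direction. The dots lie on Hk2 at 2 h after 2 and 3 weeks in YUMM2.1, on Gpi1, Gapdh, Eno1 and Ldha at 24 h after 1 week in YUMM2.1, and on Eno1, Pkm and Ldha at 3 weeks in CT26, with single dots elsewhere.

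More genes correlated with the mean of the others in YUMM2.1 than in CT26. That mean weighs genes of few counts like the rest, such as Pdk1 with 223 counts over the 45 CT26 libraries. The 27 genes are also not the same in both lines. Whether the genes varied together more in 1 line was therefore not shown. Across the 45 samples of a line, the correlation of each gene with the mean of the other genes ran from -0.36 to 0.73 in YUMM2.1, with 13 of 27 above 0.5, and from -0.17 to 0.54 in CT26, with 1 of 27 above 0.5. Tpi1 (0.73), Gapdh (0.69), Eno1 (0.66) and Ldha (0.66) were high in YUMM2.1, and Slc16a1 was the lowest at -0.36. These samples share libraries and depth: in YUMM2.1 Tpi1 correlated with the log2 library total at 0.68 and Gapdh at 0.66. The ratio of the highest to the lowest group mean had a median of 1.84 in YUMM2.1 and 2.22 in CT26. The largest ratio in each line was of a gene of few counts. It was 7.57 for Pdk3 in YUMM2.1 (median of 6 counts) and 7.61 for Pdk1 in CT26 (median of 5). The 2 medians therefore do not compare the lines at like counts. Near-identical copies were a small part of these counts, the largest being Eno1b with 7968 counts, or 2.58% of those of Eno1.

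Of 72 other genes of glucose metabolism and the HIF pathway, 48 passed the filter in YUMM2.1, against 41 in CT26, and Hif1a was called in no comparison. Slc2a3 (GLUT3), a further glucose transporter, was the gene of these called in both lines in weekly comparisons. In CT26 it was at 753 ± 34.9 CPM after 3 weeks of IFNγ and at 1372 ± 78.5 CPM in the controls (log2 -0.86 ± 0.12, adjusted p = 7.03e-07), and it also fell at 24 h after 1 week (732 against 1025 CPM, adjusted p = 0.0155). In YUMM2.1 Slc2a3 fell at 2 weeks of IFNγ (288 against 391 CPM, adjusted p = 0.0415). The matrix enzyme Loxl2 fell in CT26 at 3 weeks (434 against 610.1 CPM, adjusted p = 0.00384). Pgd, of the pentose phosphate route, fell in naive CT26 cells at 24 h (83.9 against 127 CPM, adjusted p = 0.0422) and rose at 2 weeks of IFNγ (157 against 107 CPM, adjusted p = 0.0144), so its direction differed between short and long exposure.

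In YUMM2.1 the stress gene Nupr1 rose at 2 h after 1 week (51.1 against 26.5 CPM, adjusted p = 0.0112), at 24 h after 1 week (log2 1.05, adjusted p = 0.00219) and at 2 h after 2 weeks (log2 0.95, adjusted p = 0.00968). The haem oxygenase Hmox1 fell at 1 week (67.4 against 123 CPM, adjusted p = 0.002). In CT26 controls the transferrin receptor Tfrc rose by 3 weeks (log2 0.76, adjusted p = 0.0404). Between the 0-week controls 20 of the 48 tested in a joint fit of the lines were called, a share below the 46.0% of all genes. Of these, 11 were higher and 9 lower in YUMM2.1. The largest were Pgf, a relative of Vegfa (14.8 CPM in YUMM2.1 and 0 in CT26), Nupr1 (30.1 against 180 CPM, log2 -2.60) and the pyruvate dehydrogenase phosphatase Pdp1 (14.0 against 2.54 CPM, log2 2.41).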

How the data were processed

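RNA from 90 cultures (2 lines, 15 groups, 3 replicates each) was sequenced by the authors from the 3′ ends of transcripts. The deposited values are raw counts per gene in 1 table, without normalization. The submitters' processing notes name Salmon 0.13.1 and mm10, and the paper's methods name tximport and DESeq2. The annotation and whether molecular identifiers were counted are not given in the sources used here, so floors of 3 counts cover counting error only. Standard errors and intervals come from the edgeR fit and include the spread between samples. The paper states that some unnamed samples were discarded, and all are kept here.

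Of the 53697 rows, 53668 were matched to a symbol. Genes were filtered with filterByExpr, leaving 9589 (YUMM2.1), 8516 (CT26) and 10339 (both lines). Counts were tested with edgeR 4.0.16 (TMM, quasi-likelihood, 1 coefficient per group, 15 groups of a line or 30 in a joint fit) in R 4.3.3, with Benjamini-Hochberg adjustment over all genes tested and a threshold of 0.05. DESeq2 1.42.0 was an alternative. List levels use a prior count of 2. The scripts were tested on simulated data. The genes, lists and tests were chosen with earlier results of these data known. The averaged contrasts were added after the values were seen. All 36 genes are named, with Irf1 and, of 72 further pathway genes, up to 3 of those called per comparison with the largest change, apart from 1 that is not reported here. No 2 samples of a group were identical or agreed within sampling noise. Same-numbered samples did not deviate together in any of the 14 comparisons of a line, so the numbers were not taken as pairs. Alternatives were DESeq2, a fold minimum, library totals, no filter, only the compared groups, a replicate block, and leaving out shallow libraries or each replicate number.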

Additional observations from a re-analysis of the deposited data

How the results depend on the processing

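Of 74 gene results refitted, mostly called ones, none changed its sign in the alternatives run for it, while many calls were lost with fewer samples. The other uncalled differences named above were not refitted. The rise of Hk2 in the YUMM2.1 average at 2 h was called in every fit that was run. Numbers of the 36 genes called follow where they differed from the value given above by over 1.5 times, and the cause was not tested unless the setting itself lowers the number of samples.

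DESeq2 called 3 genes at 2 h after 1 week and 2 at 24 h after 2 weeks in YUMM2.1, 1 in the 1-week YUMM2.1 controls, and in CT26 1 at 2 h and 4 at 24 h after 1 week. Library totals in place of TMM gave 0 at 3 weeks, 2 at 2 h after 1 week and 2 at 24 h after 2 weeks in YUMM2.1, and in CT26 1 at 24 h after 1 week, 0 in the 2 h average and 3 in the weekly average. Without the filter on low counts YUMM2.1 gave 1 at 2 h in naive cells, 1 at 2 h and 2 at 24 h after 1 week, 0 at 24 h after 2 weeks, 2 at 2 h after 3 weeks, 1 in the 1-week controls and 2 in the 24 h average, and CT26 gave 1 at 24 h in naive cells, 6 at 3 weeks, 1 at 24 h after 1 week and 1 in the 3-week controls. A fit of only the compared groups gave in YUMM2.1 2 at 3 weeks, 2 at 24 h after 1 week, 0 at 24 h after 2 weeks, 0 at 2 h after 3 weeks, 1 in the 2 h average and 2 in the 24 h average, and 0 in CT26 at 3 weeks. With an absolute log2 change of at least 0.5, YUMM2.1 kept 0 at 3 weeks, 2 at 24 h after 1 week, 0 at 24 h after 2 weeks, and 1, 1 and 0 in the 2 h, 24 h and weekly averages, and CT26 kept 0 at 3 weeks, 1 in the 3-week controls and 2 in the weekly average. Without the shallow libraries YUMM2.1 gave 0 at 3 weeks and 0 at 2 h after 3 weeks, and CT26 gave 6 at 3 weeks, 1 at 24 h after 1 week and 0 in the 2 h average.

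With the replicate number as a block CT26 gave 5 at 3 weeks and 1 in the 3-week controls, where Pkm had an adjusted p of 0.0501, and P4ha2 and Pdk3 lost their calls between lines and P4ha2 in the 24 h average. The block changed no other call of a gene named above.

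Leaving out 1 replicate number from every group gave, in YUMM2.1, 0 to 0 genes at 3 weeks, 1 to 2 at 24 h after 1 week, 0 to 1 at 2 h after 2 weeks, 0 to 0 at 24 h after 2 weeks, 0 to 0 at 2 h after 3 weeks, 1 to 1 in the 2 h average, 0 to 3 in the 24 h average and 0 to 1 in the weekly average. In CT26 it gave 0 to 2 at 24 h in naive cells, 0 to 5 at 3 weeks, 0 to 1 at 2 h after 1 week, 0 to 1 in the 3-week controls, 0 to 1 in the 2 h average and 0 to 4 in the weekly average. Between the lines it gave 12 to 14. Of 74 gene results, 45, 34 and 27 lost their call without replicate 1, 2 and 3.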
